A study of Mus musculus with 4 samples.

Results

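Both crypt-villus organoid arrays of the series, y-organoid and o-organoid, were set against both arrays of fresh tissue, crypt and whole intestine. Organoids are epithelial structures grown in culture, a crypt is a pocket of the gut lining with stem cells at its base, and whole intestine also contains muscle, connective tissue, vessels, nerves and immune cells. A gene was a member where both organoid arrays lay at least 2-fold above, or at least 2-fold below, both fresh arrays. Of 14438 genes measured on all 4 arrays (well above background by the scanner software's flag), 1222 were members, or 8.46%. The organoids were above for 457 genes, 3.17% of those measured, and below for 765 genes, 5.3% of those measured.

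All 4 RNA samples came from wild type mice of strain C57/BL6, and each was hybridised with Cy3 to 1 Agilent array of the same slide. The labels name no age, sex, number of animals, gut region or culture medium and do not spell out the letters y and o. The input to labelling was 40 ng for o-organoid and 20 ng otherwise. The title of the series names acetylcholine made outside neurons and stem cells that carry Lgr5. Each group had 1 array, and crypt and whole intestine are different tissues, so there were 2 arrays a side but no replicates, and no difference carries a test.

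The intestinal epithelium renews itself from stem cells at the crypt base, which depend on Wnt and R-spondin signals. Their daughters divide in the crypt and mature on the villus into absorptive enterocytes, or into secretory goblet, Paneth, enteroendocrine and tuft cells. Enterocytes carry digestive enzymes and transporters on their brush border and package dietary fat into chylomicrons, and fresh epithelium also meets microbes and immune cells. Organoids keep the epithelium alone, in a medium that supplies the growth signals.

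A signal below is a log2 value relative to the 75th percentile of its array, so that 1 unit is 2-fold, and where 4 signals of a gene follow each other they are those of intestine, crypt, y-organoid and o-organoid. The gap of a gene is the narrowest of its 4 cultured against fresh differences, given as a fold. A gene dim on a side has only a bound, which compares the means of the sides, so a bound is not set against a gap. A list's difference is the mean of the organoid arrays minus the mean of the fresh arrays on the log2 scale, given as the median over the list's measured genes, and over all measured genes this median was 0.11. Promoter sequences are RefSeq's, build GRCm38.p6, from 250 bases before to 50 after a gene's start, and are shown 5′ to 3′ on the gene's strand in lower case with a motif's match in capitals. Positions count from the start, negative before it. Motifs were read on both strands, and shares are given over 12026 promoters of measured genes, 377 of genes above and 710 of genes below, where a gene may have several starts. For a gene list, only its genes above or below were scored, and its genes without a 2-fold gap were not. Such a list may hold its factor's motif whatever the gap, which was not tested, so its share does not tie the motif to the gap. In RNA from mixed cells, fewer cells of a type and less RNA per cell cannot be told apart.

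Members below outnumbered members above, and more so as the gap widened. At a gap of at least 4-fold there were 59 genes above (0.409%) and 293 below (2.03%), together 2.44% of those measured, and at 16-fold 5 above and 42 below. Genes above had a median signal of -1.44 on the fresh side and 0.75 on the cultured side. Genes below had medians of 2.53 and -0.17. With any gap above 0, the organoids lay above for 4210 genes (29.2%) and below for 3241 genes (22.4%), together 51.6%, the opposite order. None of the 100 genes with the highest mean signal was a member.

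**Figure D1:**
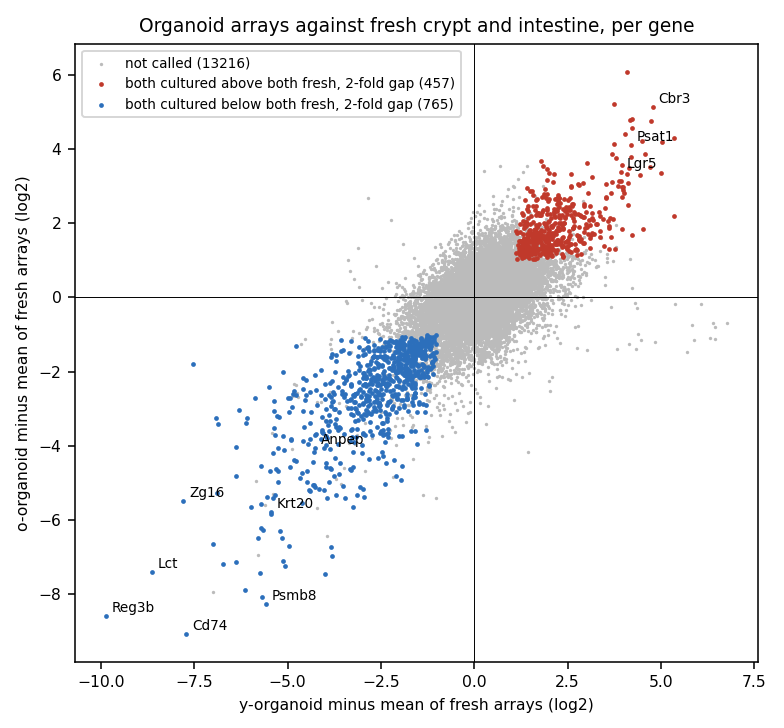
Each point is 1 of 14438 measured genes, with the difference of y-organoid (horizontal) and of o-organoid (vertical) from the mean of the fresh arrays, in log2 units. The 457 genes above are red, the 765 below are blue, and the blue cloud reaches farther from 0 than the red one.

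The widest gap below was that of Reg3b, a secreted antimicrobial lectin, which stood at 7.86 in intestine and 6.69 in crypt, against -2.58 in y-organoid and -1.31 in o-organoid, a gap of 256-fold. Lct, the milk sugar hydrolase lactase, stood at 6.77 and 7.20 in intestine and crypt and at -1.66 and -0.43 in y-organoid and o-organoid (147-fold gap). Cd74, the invariant chain of MHC class II, was at 5.55, 3.23, -3.33 and -4.68 in the same order (94.4-fold). Both organoid signals of Cd74 came within 1 unit of the lowest signal well above background, -4.20 in y-organoid and -5.00 in o-organoid. For all 3 genes the fresh arrays were high and the organoid arrays low, and Reg3b and Cd74 were also lower in crypt than in intestine. Pdzk1, a scaffold that anchors transporters under the brush border, was at 4.93, 4.88, -1.47 and -2.24 (81.9-fold), and its other measured probe also put the organoids below. Krt20, a keratin of mature villus and surface epithelium, was at 7.90, 7.16, 2.08 and 1.75 (33.96-fold). The 15 widest also held Dnase1, the mucin Muc3, Unc93a, Podn, the transporters Slc13a2 and Slc5a11, Apoa1, Psmb8, Apol9b and the guanine deaminase Gda.

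The widest gap above was that of Cbr3, a carbonyl reductase, which stood at 0.39 in intestine and 0.99 in crypt, against 5.47 in y-organoid and 5.83 in o-organoid (22.4-fold gap). Macc1, a regulator of the growth factor receptor gene Met, was at -3.60, -2.62, 1.61 and 1.66 (18.7-fold). Psat1, an enzyme of serine synthesis, was at 0.20, 0.03, 4.32 and 4.23 (16.3-fold). In each of these genes the arrays of the same side lay within 1 unit of each other. Etv4, an ETS transcription factor downstream of growth factor signals, was at -1.03, -0.94, 3.59 and 2.90 (14.2-fold). The glutathione transferase Gsta3 was at 0.69, 1.98, 5.51 and 6.13 (11.6-fold). For Gsta3 crypt lay more than 1 unit above intestine, and both stayed under the organoids. The 15 widest also held Epop, Rgcc, Mboat1, Acta1, Pdxp, Tcf23, Sult1c2, Ero1a and S100a14.

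**Figure D2:**
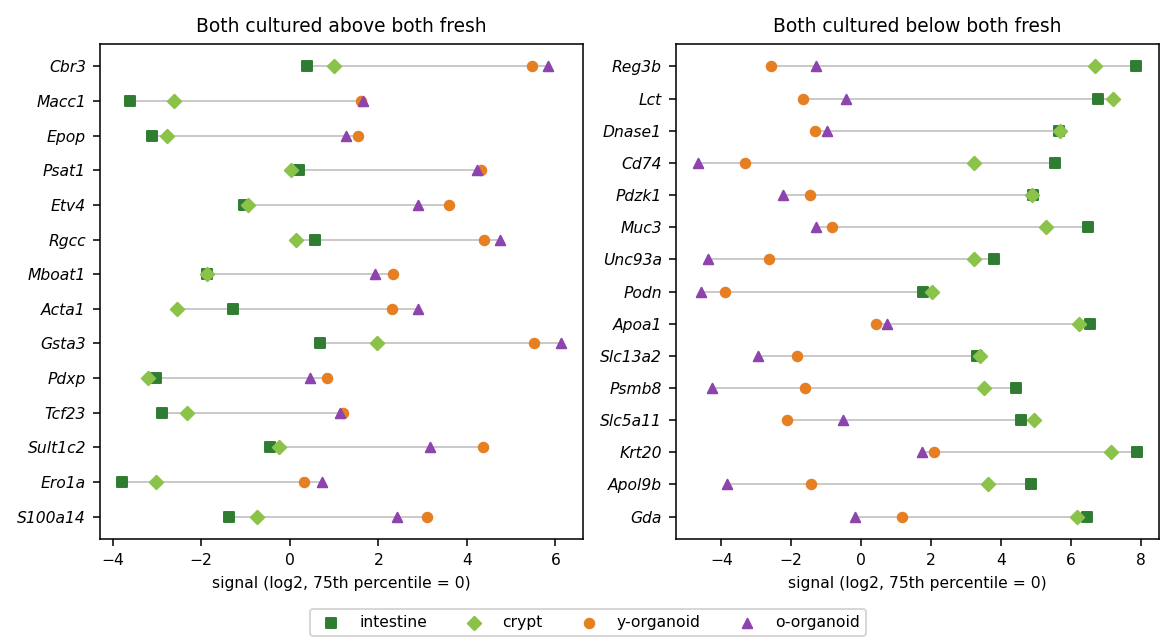
Signals (log2, array's 75th percentile at 0) on the 4 arrays of the genes with the widest gaps that are reported here, left above and right below, each gene on a line of its own. Cbr3 leads the genes above with a 22.4-fold gap and Reg3b the genes below with 256-fold.

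Brush border enzymes of enterocytes were lower in both organoids almost throughout the list. Of 19 measured genes for brush border hydrolases and structure, 17 were members below and 0 above, with a median difference of -2.86 and a range of -3.72 to -2.20 over the alternative settings. The aminopeptidase Anpep was at 8.002, 8.03, 3.76 and 3.94 (16.6-fold), and the metalloprotease subunit Mep1b at 6.50, 6.53, 1.14 and 2.31 (18.2-fold). Sis, the sucrase-isomaltase, was at 6.29, 6.35, 3.41 and 4.14 (4.44-fold). These enzymes were thus bright and alike in crypt and intestine, and dimmer yet still measured in the organoids. Structural genes had narrower gaps than Lct, with Vil1 (villin, 4.47-fold), Myo1a (4.42-fold) and Espn (espin, 2.34-fold). Tmprss15, the enteropeptidase that activates trypsin, was not well above background in either organoid and had a bound of at least 48.9-fold below.

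The promoter of Pdzk1 is shown for the HNF4-type letters CAAAGTCCA, the kind of site read by a nuclear receptor of enterocytes. They were in 2.25% of promoters of genes below (16 of 710), 0.265% of those above and 0.507% of all measured ones. The 15 genes with them included Cyp3a11, Treh, Sult1b1 and Pdzk1, whose promoter at chr3:96829815-96830114 on the plus strand holds them from position 15:

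Pdzk1: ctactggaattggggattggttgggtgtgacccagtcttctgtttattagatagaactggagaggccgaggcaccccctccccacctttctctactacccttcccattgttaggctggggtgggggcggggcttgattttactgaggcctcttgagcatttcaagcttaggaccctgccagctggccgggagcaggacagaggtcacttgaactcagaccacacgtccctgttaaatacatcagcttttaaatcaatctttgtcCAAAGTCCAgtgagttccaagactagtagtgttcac

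Fat absorption genes gave a similar count, with 16 of 18 measured genes below, 0 above and a median of -2.82. Apoa1, an apolipoprotein of chylomicrons and HDL, was at 6.56, 6.23, 0.43 and 0.73 (45.3-fold), and its neighbour Apoa4 at 6.63, 6.26, 0.06 and 2.40 (14.5-fold). The chylomicron scaffold Apob (6.42-fold), the lipid loading protein Mttp (4.20-fold) and the fatty acid carriers Fabp1 (6.50-fold) and Fabp2 (3.995-fold) had smaller gaps. For Apoa4 and Fabp2 o-organoid lay more than 2 units above y-organoid, and both organoids stayed under the fresh arrays. Creb3l3, a transcription factor of lipid metabolism in liver and gut, was at 6.01, 5.58, 1.21 and 2.73 (7.24-fold).

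Transporters split by kind. Of 19 measured sugar and amino acid transporters 10 were below, and 3 were above, with a median of -2.35. Those below were carriers of the absorptive surface and its basal side, such as Slc5a1, the sodium-glucose cotransporter (2.12, 1.55, -1.07 and -0.80, 5.12-fold), the fructose carrier Slc2a5 (5.57-fold) and the glucose carrier Slc2a2 (9.87-fold). The 3 above were carriers that most dividing cells use. They were the glucose carrier Slc2a1 (-0.42, 0.02, 1.75 and 2.04, 3.32-fold), the leucine carrier subunit Slc7a5 (-2.34, -3.40, 0.15 and 0.75, 5.596-fold) and the glutamine carrier Slc1a5 (0.73, 1.07, 3.32 and 3.05, 3.93-fold). Slc15a1, the peptide carrier of the brush border, had a bound of at least 20.7-fold below, and the cystine carrier Slc7a11 a bound of at least 3.48-fold above. Among all 226 measured genes whose symbols begin with Slc, 46 were below (20.4%) and 9 above.

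Ion and water transport also split, whereas the bile acid, cobalamin and iron list had 3 of 12 measured genes below and 0 above. Among 15 measured genes of chloride, bicarbonate and water transport 5 were below and 2 above. Slc9a3, the sodium-proton exchanger of absorptive cells, was at 3.89, 3.19, -1.29 and -0.83 (16.3-fold). Slc12a2, the chloride loader of secreting crypt cells, was at 2.26, 3.87, 5.45 and 4.94 (2.11-fold), and the water channel Aqp4 at -1.51, -0.27, 1.77 and 1.42 (3.22-fold). The members above in this list were thus a secretory transporter and a water channel, and intestine was their lowest array. Both subunits of the basolateral bile acid exporter were below, Slc51a by 13.2-fold and Slc51b by 29.0-fold. Cubn, the cobalamin receptor cubilin of the distal gut, was at 2.05 and 3.13 in intestine and crypt and not well above background in the organoids (bound at least 147-fold).

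Cytochrome P450 genes were below in 10 of 19 measured cases and above in 0, with a median of -1.57. Cyp3a11, a major drug-oxidising enzyme, was at 5.85, 5.09, -1.45 and 2.23 (7.27-fold), and Cyp2b10 at 6.01, 6.76, -1.15 and 4.59 (2.68-fold), so o-organoid was far above y-organoid for both. With the deposited table's scaling by the median, 6 of the 19 were below. Conjugating enzymes went both ways, with 4 of 29 above and 5 below. Gsta3, Sult1c2, the epoxide hydrolase Ephx1 (3.57-fold) and Ugt1a6a (2.06-fold) were above, whereas Ephx2 (7.61-fold), Gstk1 (5.48-fold), Sult1b1, Sult2b1 and Ces2e were below. Near-identical family members can share signal on these arrays, so single Cyp3a, Ugt1a, Defa, Reg3 and H2 genes are uncertain.

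PPAR targets and fatty acid oxidation genes were below in 9 of 23 measured cases, with a median of -1.37, and above in 0. Cyp4a10, a fatty acid hydroxylase, was at 0.49, 1.03, -3.01 and -4.05 (11.3-fold), and the peroxisomal thiolase Acaa1b at 3.01, 2.94, 0.87 and 0.83 (4.21-fold). With the deposited table's scaling the count was 6. Among nuclear receptors Ppard was below (3.02-fold) and Pparg above (1.55, 0.74, 2.69 and 2.76, 2.21-fold). The retinoid list had 3 of 10 below, namely Isx (7.90-fold), Rbp2, the retinol carrier of enterocytes (5.47, 5.49, -1.37 and 2.05), and Rdh7 (6.38-fold).

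Antigen presentation by MHC class I was lower in both organoids for most of its genes. Of 19 measured MHC class I and immunoproteasome genes 16 were below and 0 above, with a median of -2.78. B2m, the shared light chain, was at 6.61, 5.52, 3.17 and 3.67 (3.61-fold), and the classical heavy chain H2-K1 at 7.02, 6.13, 4.58 and 4.62 (2.85-fold). Psmb8, an immunoproteasome subunit, was at 4.43, 3.53, -1.59 and -4.28 (34.9-fold). Both peptide transporter subunits were below, Tap1 by 10.1-fold and Tap2 by 6.56-fold. The heavy chain genes varied, with H2-K1 bright in the organoids and H2-T3 dim (1.41, 1.19, -1.99 and -3.35). On the o-organoid array Psmb8 and Tap1 came within 1 unit of the lowest signal well above background there, -5.00. Among the 21 measured genes whose symbols begin with H2-, 15 were below.

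Interferon response genes pointed the same way, with 7 of 11 measured genes below, 0 above and a median of -2.79. Irf1, an interferon-induced transcription factor, lay 20.7-fold below, with fresh signals of 4.45 and 4.38. Isg15, a ubiquitin-like protein, was at 6.56, 2.63, 0.61 and -2.87 (4.05-fold), and Igtp, an interferon-induced GTPase, at 3.16, 1.09, -1.68 and -4.85 (6.85-fold). For Isg15 and Igtp the order was intestine, crypt, y-organoid, o-organoid from high to low, with more than 2 units between crypt and intestine as well. The o-organoid signal of Igtp was near the lowest signal well above background there, -5.00. The MHC class II list had 3 measured genes, Cd74, Ctss and H2-DMa, all below, and the class II chain H2-Eb1 had a bound of at least 588-fold between the means of the sides.

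The interferon-type element (GAAA, any 2 bases, GAAA) was in 6.20% of promoters of genes below, 2.65% of those above and 2.78% of all measured ones. It was in 4 of 7 promoters of the interferon members and in 3 of 16 of the class I members. Igtp, at chr11:58199306-58199605 on the plus strand, holds it from position -34:

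Igtp: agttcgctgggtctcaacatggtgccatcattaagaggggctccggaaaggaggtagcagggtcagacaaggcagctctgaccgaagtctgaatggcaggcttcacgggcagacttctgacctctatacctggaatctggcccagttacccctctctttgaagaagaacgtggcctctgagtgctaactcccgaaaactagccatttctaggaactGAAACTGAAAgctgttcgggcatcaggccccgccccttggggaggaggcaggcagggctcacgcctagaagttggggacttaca

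Immune cell markers were seen more widely on the fresh arrays. Of 27 immune cell markers, 25 were well above background in intestine, 17 in crypt, 7 in y-organoid and 9 in o-organoid. Of all 30106 genes, 17689 were so in intestine, 15705 in crypt, 16333 in y-organoid and 16503 in o-organoid. Over all genes crypt was thus below both organoids in this count, while for immune markers it was above both. Gzma, a granzyme of cytotoxic lymphocytes, and Ccl5, a chemokine of the same cells, had bounds of at least 535-fold and 283-fold below between the means of the sides. Stroma markers were well above background for 16 genes in intestine, 2 in crypt, 2 in y-organoid and 1 in o-organoid, so most of them were dim in the crypt sample too. The 4 measured genes of pancreas, fat and red cells had median signals of 9.68, -2.81, -2.34 and -1.71. Among them the pancreas gene Ctrb1 was at 10.21, -2.33, -0.95 and -0.14. Intestine alone was thus bright for these genes, and 0 of them were members. The part of immune cells in the antigen presentation and interferon counts was not tested. Crypt was the dimmer fresh array for all 16 class I members and all 7 interferon members, so their gaps are those against crypt.

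**Figure D3:**
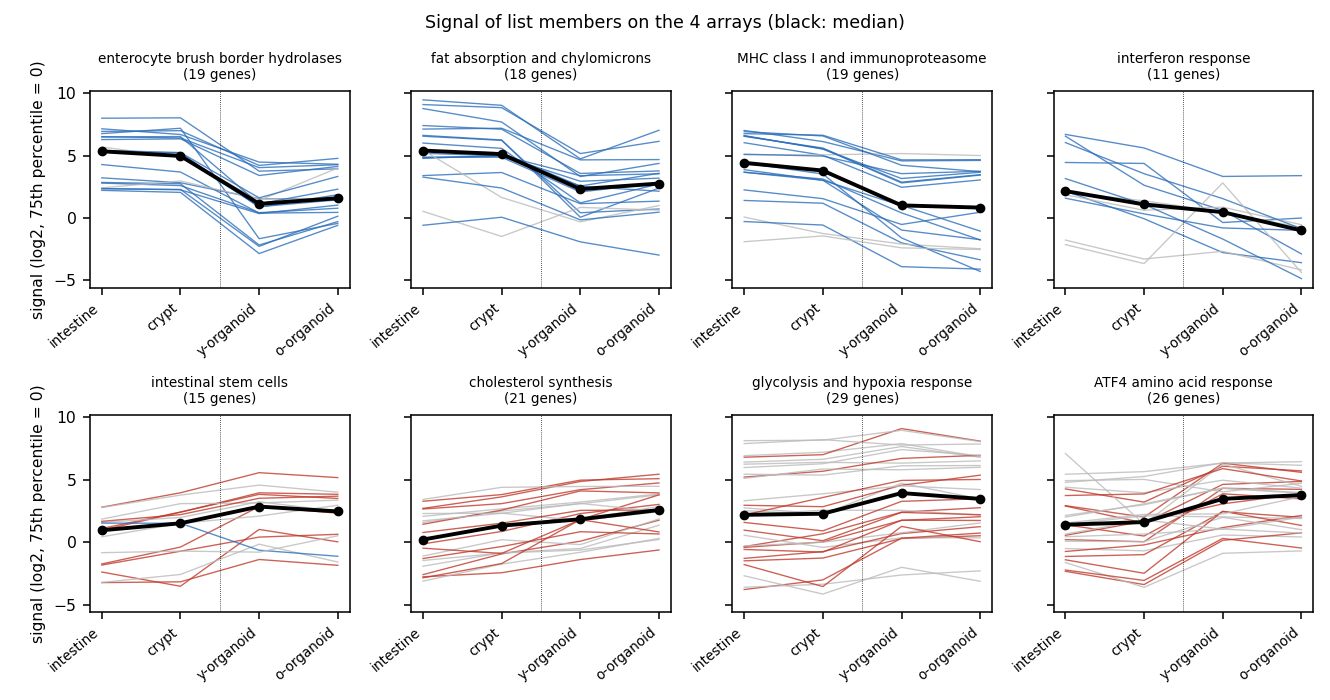
Lines join the signals (log2, array's 75th percentile at 0) of each measured member of 8 gene lists on the 4 arrays, blue for genes below, red for genes above, grey for the others, black for the list's median. A dotted line parts fresh from cultured arrays, and the medians lie lower to its right for the 4 lists of the upper row and higher for the 4 of the lower row.

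Of 11 measured Reg lectins and antimicrobial genes 6 were below, 0 above and 5 overlapped between the sides, with a median of -2.45. Beside Reg3b these included Reg3g (6.52, 5.86, 1.27 and 1.62, 18.9-fold), Reg3a (24.8-fold), Reg1 (2.92-fold) and Lypd8 (2.92-fold). Reg3d, the sixth, was at 6.10 in intestine and -0.78 in crypt, so its gap of 4.35-fold was set by the crypt array. The list of toll-like and other pattern receptors had 0 of 12 in either direction, against 8.46% of all measured genes, so this count says little. The cytokine Il18, which epithelium makes, was at 4.21, 3.45, -1.43 and -1.16 (24.4-fold).

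Secretory cell markers had 2-fold gaps below in 17.6% of the Paneth, 20.0% of the goblet and 17.6% of the enteroendocrine list, against 5.3% of all measured genes. Paneth cells, the defensin-secreting neighbours of stem cells, had 3 of 17 measured markers below, with a median of -1.46. The defensin Defa31 was at 5.42, 6.45, 0.38 and 0.56 (29.0-fold). Goblet cells, which make mucus, had 3 of 15 below, led by the lectin Zg16 at 9.93, 8.83, 1.58 and 3.88 (30.8-fold), with a median of -1.04. Tff3, the goblet cell trefoil peptide, stayed bright on all arrays at 8.18, 8.15, 7.26 and 7.02, short of a 2-fold gap. Enteroendocrine markers had 3 of 17 below, the hormones Sct, Nts and Pyy, and 1 above. That gene, Neurog3, the transcription factor that starts the enteroendocrine lineage, was at 0.15, 1.65, 2.998 and 4.02 (2.54-fold). Tuft cell markers had 1 of 12 below, Alox5. Without the o-organoid array 14 of 17 Paneth and 8 of 15 goblet markers were below, without intestine 7 Paneth markers, and without y-organoid 7 enteroendocrine markers.

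Genes of intestinal stem cells stood higher in both organoids. Of 15 measured stem cell genes 8 were above and 1 below, with a median of 1.66 and a range of 1.25 to 2.09 over the alternative settings. Lgr5, the R-spondin receptor that marks crypt base stem cells, was at -1.75 in intestine, -0.39 in crypt, 2.85 in y-organoid and 2.32 in o-organoid (6.55-fold gap). Ascl2, a transcription factor of the same cells, was at 0.95, 2.40, 3.95 and 3.83 (2.70-fold). Smoc2, a secreted matrix protein, was at 2.80, 3.96, 5.57 and 5.17 (2.33-fold). In each of the 3 genes the order was intestine, crypt, o-organoid, y-organoid from low to high. Tnfrsf19 (5.35-fold), Znrf3 (2.50-fold), Hopx (2.48-fold), Sox9 (2.19-fold) and Olfm4 (2.13-fold) were also above. Msi1, an RNA-binding protein also used as a stem cell marker, went the other way, at 1.53, 1.51, -0.65 and -1.13 (4.47-fold below). Olfm4 and Sox9 fell short of a 2-fold gap with the deposited table's scaling and with normexp background correction, and Znrf3 with normexp.

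Wnt feedback genes followed in part, with 4 of 15 above, 1 below and a median of 1.07. Myc, a growth-promoting transcription factor, was at -1.55, -0.86, 0.97 and 1.44 (3.55-fold), beside Lgr5, Sox9 and Znrf3, which the stem cell list also holds. Notum, a secreted Wnt inhibitor, was below (2.01, 1.94, 0.90 and 0.37, 2.06-fold). Axin2, a further feedback gene, was at -3.23, -2.59, -0.16 and -1.59 and lay just short of a 2-fold gap above. Of 20 measured proliferation genes 0 reached a 2-fold gap in either direction, against 8.46% of all measured genes, with a median of 1.01. The organoids lay above both fresh arrays by any margin for 12 of these 20. Without the crypt array 17 of 20 were above with a median of 1.81, and without intestine 0 were above with a median of 0.25.

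Growth factor genes showed a narrower pattern. Of 13 measured EGF family and response genes 4 were above and 1 below, with a median of 0.06. Areg, an EGF receptor ligand, was at -0.28, -2.30, 4.05 and 0.90, so y-organoid was the highest and the gap of 2.27-fold was set by o-organoid against intestine. Etv4, Etv5 (2.90-fold) and Phlda1 (4.89-fold), which respond to receptor signals, were above, and the ligand Nrg4 was just past the threshold below (2.01-fold). Btc, the ligand betacellulin, was well above background only in the organoids, with a bound of at least 6.03-fold. In the BMP and TGF-beta list the ligand Bmp7 was above (2.21-fold), and the BMP targets Id1 (3.02-fold) and Id3 (4.59-fold) and the matrix protein Tgfbi (4.90, 4.04, -0.87 and -0.87, 30.0-fold) were below.

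Genes of cholesterol synthesis, which the sterol-sensing factor encoded by Srebf2 controls, were higher in both organoids. Of 21 measured genes 11 were above and 0 below, with a median of 1.58 and a range of 1.22 to 1.87. Hmgcs1, an early enzyme of the pathway, was at 3.28, 3.81, 4.97 and 5.09 (2.23-fold), and Sqle, the squalene epoxidase, at 1.43, 2.57, 4.11 and 3.95 (2.60-fold). Fdps, which makes farnesyl diphosphate, was at 2.71, 3.63, 4.86 and 5.45 (2.35-fold). Intestine was the lowest array for these 3 genes. Srebf2 itself (2.01-fold), Lss (2.03-fold), Msmo1 (2.17-fold), Insig1 (2.46-fold) and Mvd (2.70-fold) had similarly narrow gaps. The count depended on the scaling, with 3 of 21 under the deposited table's median scaling, 8 with quantile normalization and 6 with normexp, while the median stayed between 1.46 and 1.75. Fatty acid synthesis had 3 of 18 above, with Scd2, a desaturase, at 0.10, 1.77, 4.68 and 6.15 (7.50-fold), Acly (2.18-fold) and Elovl5 (2.28-fold).

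The sterol element TCACNCCAC was in 1.06% of promoters of genes above, 1.55% of those below and 1.21% of all measured ones, and in 1 of 6 matched promoters of the cholesterol members. That promoter was Hmgcs1, at chr13:119690101-119690400 on the plus strand, with the match from position -137. The letters CCAAT were in all 6 of these promoters and in 38.0% of measured ones (36.6% above, 36.5% below):

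Hmgcs1: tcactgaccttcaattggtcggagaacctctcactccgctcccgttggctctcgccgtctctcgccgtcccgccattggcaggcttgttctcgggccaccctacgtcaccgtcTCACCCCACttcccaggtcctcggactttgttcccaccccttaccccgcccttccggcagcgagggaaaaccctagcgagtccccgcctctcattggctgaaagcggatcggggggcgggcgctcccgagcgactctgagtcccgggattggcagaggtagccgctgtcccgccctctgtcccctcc

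Glycolysis and the response to low oxygen formed another group above. Of 29 measured genes 13 were above and 0 below, with a median of 1.30. Ero1a, an oxidase of the endoplasmic reticulum induced by low oxygen, was at -3.80, -3.03, 0.32 and 0.73 (10.2-fold). Ankrd37 was at -0.59, -0.80, 1.76 and 1.74 (5.01-fold), and Bnip3, a mitophagy receptor, at 1.58, 0.91, 3.27 and 3.48 (3.23-fold). The growth factor Vegfa (2.36-fold), the hexokinase Hk2 (2.96-fold), the kinase Pdk1, which holds pyruvate back from mitochondria (2.72-fold), and the glycolytic enzymes Pfkl (3.33-fold), Aldoa (2.12-fold) and Pgk1 (2.04-fold) were also above. Oxidative phosphorylation genes leaned the other way, with 2 of 24 below by 2-fold (Ndufa1 and Cox7a1), 19 below by any margin and a median of -0.64.

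The hypoxia core ACGTG was in 11 of 16 promoters of these members, 68.8%. Its share was 27.1% for genes above, 20.6% for genes below and 25.2% for all measured ones. Ero1a had the widest gap of the list, and its promoter, chr14:45318523-45318822 on the minus strand, holds the reverse complement from position -63:

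Ero1a: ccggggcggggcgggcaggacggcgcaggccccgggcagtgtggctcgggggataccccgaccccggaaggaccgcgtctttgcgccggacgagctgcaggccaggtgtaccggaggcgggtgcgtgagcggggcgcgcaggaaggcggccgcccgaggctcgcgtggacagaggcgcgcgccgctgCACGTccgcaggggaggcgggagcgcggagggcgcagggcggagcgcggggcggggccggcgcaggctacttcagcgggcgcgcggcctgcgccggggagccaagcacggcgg

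The amino acid response that the transcription factor ATF4 drives had 12 of 26 measured genes above and 0 below, with a median of 1.60. Enzymes of serine synthesis and folate metabolism were among them. Phgdh, the first enzyme of serine synthesis, was at 2.89, 1.54, 4.63 and 4.87 (3.33-fold), and Psat1, Psph (2.62-fold), Shmt2 (2.63-fold) and Mthfd2 (7.93-fold) were above with it. Trib3, a pseudokinase induced by ATF4, was at 1.39, 0.49, 3.88 and 3.47 (4.21-fold), and Asns, the asparagine synthetase, at 4.27, 3.21, 6.09 and 5.71 (2.73-fold). Crypt was the lowest array for these last 2 genes and for Phgdh. Of 19 measured endoplasmic reticulum chaperones 0 reached a 2-fold gap, against 8.46% of all measured genes. By any margin 10 of them lay below and 0 above, with a median of -0.70, and without o-organoid 7 were below by 2-fold. Hspa5, the main chaperone, was at 5.24, 5.65, 4.97 and 4.90.

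The ATF4-type letters TGATGNAA were in 3 of 14 promoters of these members, 21.4%. Their share was 3.98% for genes above, 3.24% for genes below and 2.23% for all measured ones. In Trib3 the promoter, chr2:152344011-152344310 on the minus strand, holds the reverse complement from position 15:

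Trib3: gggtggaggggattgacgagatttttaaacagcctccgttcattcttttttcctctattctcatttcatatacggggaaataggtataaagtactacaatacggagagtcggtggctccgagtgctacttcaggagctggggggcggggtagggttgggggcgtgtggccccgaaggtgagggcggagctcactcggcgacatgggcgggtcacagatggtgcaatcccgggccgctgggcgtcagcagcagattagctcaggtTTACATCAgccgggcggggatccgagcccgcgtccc

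Antioxidant genes of the Nrf2 type were above in 5 of 19 measured cases and below in 0, with a median of 0.59. Beside Cbr3 these were the glutathione enzymes Gclc (0.67, 1.53, 2.66 and 3.98, 2.19-fold) and Gsr (2.11-fold), the reductase Akr1b8 (2.85-fold) and the exporter Abcc4 (4.12-fold). Nqo1, the quinone reductase often used to mark this response, was at 0.24, 0.79, 1.48 and 2.40 and its gap of 1.62-fold did not reach 2-fold. With the deposited table's scaling the count was 2.

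**Figure D4:**
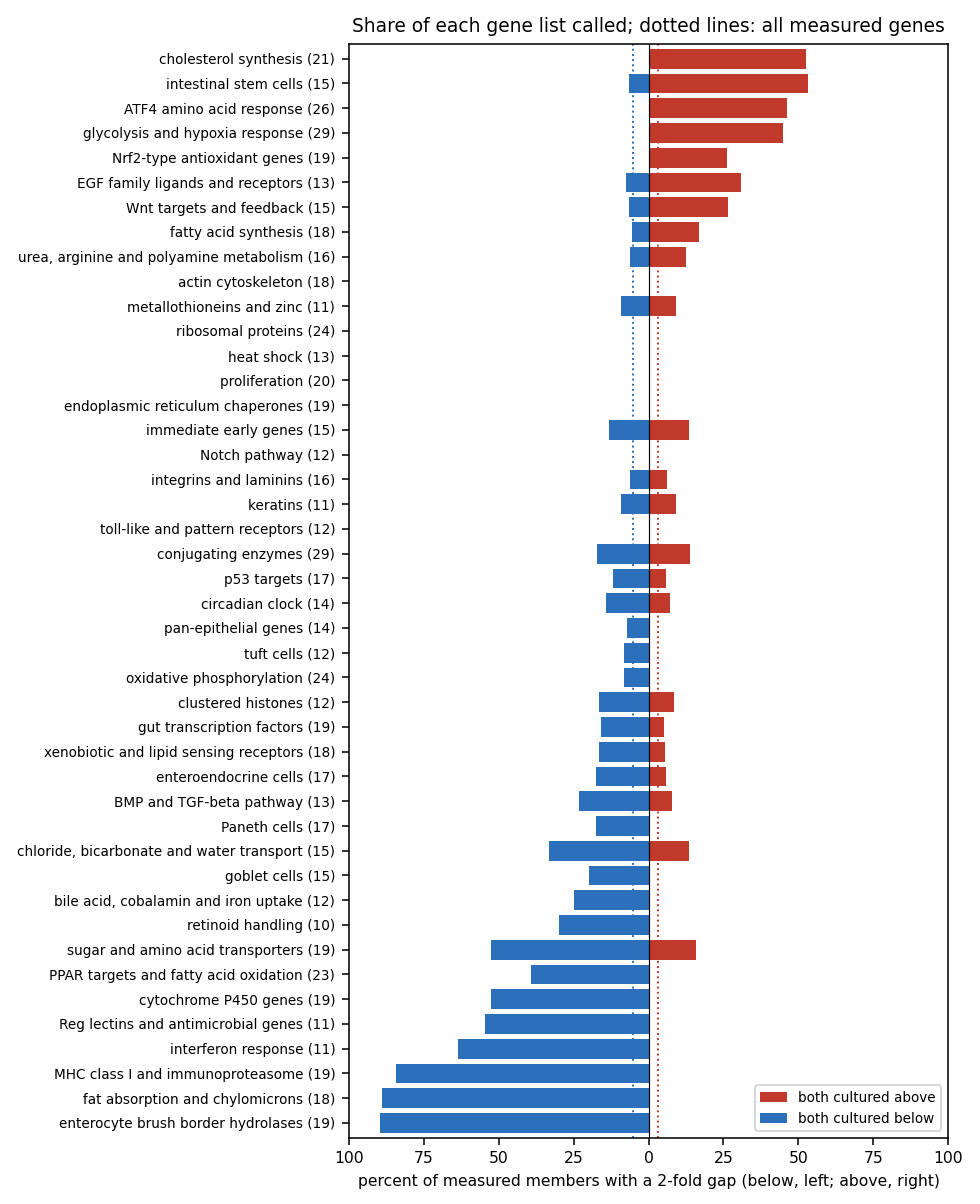
Bars give the percent of measured members with a 2-fold gap for each list of at least 10 measured genes, below to the left and above to the right, with the number measured in brackets. Dotted lines mark the shares over all measured genes, 5.3% below and 3.17% above. Lists are ordered by the percent above minus the percent below, not by their median difference.

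Genes that mark the epithelium as such were measured on both sides. Of 14 measured pan-epithelial genes 0 were above and 1, Krt20, was below. The gut transcription factors Cdx2 (3.25, 3.73, 3.99 and 3.33) and Hnf4a (5.35, 6.20, 5.81 and 5.59) had organoid signals within or next to the fresh ones. In that list of 19 Foxa2 was above (2.22-fold), and Hnf4g (1.72, 1.81, -0.82 and -0.04, 3.39-fold), Klf4 (4.63-fold) and Maf (5.16-fold) were below. The ribosomal protein and heat shock lists had 0 members in either direction, although 21 of 24 ribosomal protein genes lay above by any margin, with a median of 0.54. The Notch list had 0 of 12. Over all measured genes the share was 8.46%, so a count of 0 in lists this short says little.

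Of 33 genes of acetylcholine metabolism and its receptors, which the title of the series concerns, 7 were measured on all 4 arrays and 0 had a 2-fold gap. Over all measured genes the share was 8.46%, so 0 of 7 says little. By any margin 4 of the 7 lay below and 0 above. Crat was at -1.80, -1.45, -4.11 and -3.11, but it was not well above background in y-organoid and was not counted. Chrm3, a muscarinic receptor, was not well above background in intestine (-4.58) and crypt (-4.60) and was so in y-organoid (-1.49) and o-organoid (-2.33), a bound of at least 6.02-fold above.

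Genes dim on one side carry only bounds and are not among the 1222. For 288 genes both organoids were well above background and neither fresh array was, and for 284 genes the reverse held. A filter on the bright side fixes the direction of these genes, so their numbers describe detection alone. Bounds were ranked by the narrowest difference between the sides, not by the fold printed, and Mt4 led those above among named genes. This metallothionein of squamous epithelium had a bound of at least 169-fold (signals 1.82 and 3.98 in y-organoid and o-organoid). Anxa10 (at least 26.7-fold) and Igf2bp3, an RNA-binding protein of fetal tissue (at least 12.7-fold), came next among named genes, with Pimreg and Plekhd1 after them.

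Some members below lay next to each other along the chromosomes. Among 11907 pairs of neighbouring measured genes 92 had both genes below and 16 both above, and 20 runs of at least 3 neighbours were below against 2 above. Members below were also more numerous, 765 against 457, and the numbers that these shares alone would give were not worked out. The longest run held 7 genes of the MHC on chromosome 17, from H2-DMa through Psmb9, Tap1, Psmb8 and Tap2 to Btnl2 and Btnl1. Other runs were the Reg genes on chromosome 6 (5 genes), Apoa1, Apoc3 and Apoa4 on chromosome 9, and Cyp3a genes on chromosome 5. These neighbours are paralogs or share a pathway, so a run is not a set of independent genes.

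Both sides had their arrays within 2-fold of each other for 63.2% of genes above and 66.5% of genes below, against 67.1% of all measured genes. The organoids alone lay within 2-fold for 371 of 457 genes above (81.2%), against 75.9% of all measured genes, and the fresh arrays for 353 genes above (77.2%) and 664 of 765 below (86.8%), against 86.2%. Crypt was nearer to the organoids than intestine was for 301 of 457 genes above and 513 of 765 below. Over all 14438 measured genes crypt lay above intestine for 9026 and below it for 5412. The y-organoid array was farther from the fresh side than o-organoid for 301 genes above and 440 below. Over all measured genes y-organoid lay above o-organoid for 7937 and below it for 6501. Across genes, which are not independent, arrays correlated least for intestine and y-organoid (r = 0.883) and most for intestine and crypt (r = 0.956). The organoids correlated with each other at r = 0.949, and crypt with o-organoid at r = 0.942. By the median absolute difference o-organoid was nearer to crypt (0.487) than to y-organoid (0.564).

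Other probes of the same gene gave a check on single members. Of 83 genes above with a further measured probe, 75 had the organoids above by that probe too, 35 of them by 2-fold. Of 134 genes below, 112 had the organoids below, 65 of them by 2-fold. The direction was opposite for 1 gene above, Nlrp1a, and for 3 below, H2-Q10, Hmbox1 and 5031425E22Rik, named here after their values were seen.

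For the 6 motifs searched, 0 promoters of member genes held overlapping matches of different motifs. Across all 32851 promoters of the RefSeq table the shares were 3.97% for TGATGNAA, 19.6% for ACGTG, 1.24% for TCACNCCAC, 37.4% for CCAAT, 3.44% for the interferon-type element and 0.475% for CAAAGTCCA. A match describes letters in a window, and no binding was measured.

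**Figure D5:**
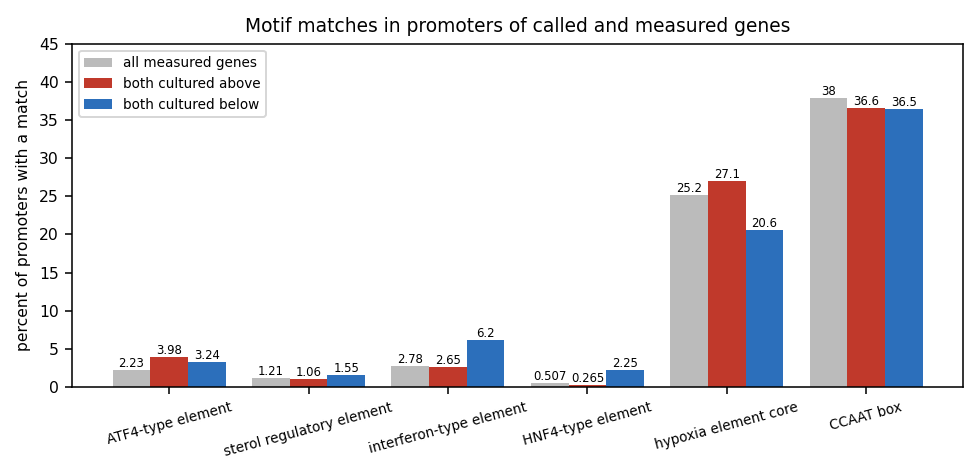
Bars give the percent of promoters with at least 1 match of each motif, for all measured genes (grey), genes above (red) and genes below (blue). The interferon-type and HNF4-type elements stand higher in the genes below, at 6.20% and 2.25%, than in all measured genes, at 2.78% and 0.507%.

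The threshold itself drew the line through genes of like values. Above, Rbm38 (2.005-fold) and Polr3g (2.006-fold) were just inside it and Axin2 (1.996-fold) and Fggy (1.994-fold) just outside. Below, Bak1 (2.004-fold) and Nrg4 (2.005-fold) were just inside and Elmod3 and Nudt4 (both 1.997-fold) just outside. The X-linked transcript Xist was well above background in intestine alone (-1.17), and the Y-linked gene Eif2s3y in crypt (1.08), y-organoid (1.28) and o-organoid (0.86), so the sex-linked genes set intestine apart from the other 3 arrays, and neither gene entered the counts.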

How the data were processed

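Total RNA from an acid guanidinium extraction was amplified and Cy3-labelled with Agilent's low-input kit, per the labels. The authors deposited scanner files with the processed intensity of 43020 spots per array, made by Agilent Feature Extraction 10.7.3.1 per the file headers. They also deposited a table that holds a ratio, each processed intensity over 1 constant per array, which puts every column's median at 1.0. Its constants were 40.5 for intestine, 29.5 for crypt, 25.2 for y-organoid and 36.9 for o-organoid.

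The 1377 control spots and 108 to 165 outlier spots per array were left out, and no spot was saturated. Log2 of each deposited intensity was taken, minus that array's 75th percentile (281 to 641 in intensity). Repeated spots were averaged, and the brightest probe stood for each of 30106 genes. Gene names came from RefSeq's table for GRCm38.p6, matched for 27324 probes on accession, for 3518 on symbol and for 551 on synonym. The other 8036 probes have the name in the file. Between 51.9% and 58.7% of spots were well above background, and repeated spots had an SD of 0.0864 to 0.122 (log2). The number of arrays limits the precision.

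A gene dim on a side has a bound, from the lowest signal well above background (-5.00 to -4.20 by array) or its own, whichever is higher. The members, 56 gene lists and the rule for named genes were chosen with earlier results of these data known, so list counts are no independent support. Of 1091 listed genes 1079 were matched to a probe, and 43 stand in several lists. The rule named the 15 widest gaps and 6 widest bounds in each direction, the genes nearest the threshold, and the widest members of each list. Bounds were ranked for this by the narrowest cultured against fresh difference. Further list members are named as examples, and a few genes that the rule takes in are left unreported. The calling step was run on simulated data with planted shifts, small noise and the same baseline on all 4 arrays. Real arrays of a side differed more, by a median of 0.395 for the fresh and 0.564 for the cultured arrays. The simulation thus checks the code alone, not the rate of false calls in these data. Python 3.11.15, pandas 2.3.3, R 4.3.3 and limma 3.58.1 were used, the last for normexp correction and quantile normalization as alternatives.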

Additional observations from a re-analysis of the deposited data

Results flagged for a closer look

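In 7 of 56 gene lists the medians of the y-organoid and o-organoid arrays lay on opposite sides of the fresh mean, and in 3 of them they were at least 1 unit (log2) apart. These differences were not tested. Enteroendocrine genes had a median of 0.26 for y-organoid and -0.84 for o-organoid, a difference of -1.10 on the log2 scale. Tuft cell genes had 0.23 and -0.89, a difference of -1.12. Circadian clock genes had 0.72 and -0.33, a difference of -1.05.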

How the results depend on the processing

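The counts of 457 genes above and 765 below came to 465 and 532 with the deposited table's median scaling, 493 and 705 with quantile normalization, and 461 and 734 with the median over probes. Normexp background correction gave 268 above and 620 below, and no filter on dim probes gave 754 and 1210. With any gap the counts were 4210 and 3241, and with a 4-fold gap 59 and 293. Leaving out an array relaxes the rule, since fewer arrays then have to be separated. The counts above and below were 740 and 956 without intestine, 1651 and 1376 without crypt, 834 and 1418 without y-organoid, and 1691 and 1468 without o-organoid. By list, PPAR targets and fatty acid oxidation went from 9 to 18 below and interferon genes from 7 of 11 to 12 of 20 measured without o-organoid, Nrf2-type genes from 5 to 9 above without y-organoid, and cholesterol genes from 11 to 17 above without crypt and 18 without y-organoid. Without probes that hold a GA repeat, a choice made after seeing the data, the counts were 458 and 765. Of the genes called under both the main setting and each alternative, 0 changed direction, while median scaling kept 67.4% of those above and 64.2% of those below. Median scaling moved the median of all genes from 0.11 to 0.29. Of 155 named members 123 kept a 2-fold gap under all alternatives run. Dropping the filter or the GA repeat probes could not remove a call, and leaving out an array can only widen the gap of the same probe. These settings therefore add little to the counts of calls kept. Under at least 1 alternative the median changed sign in 17 of 56 lists, 14 of them with a median under 2-fold in the main setting. The other 3 were YAP and TEAD targets to -0.0931 with no filter, stroma (1 gene) to 0.078 without intestine, and pancreas, fat and red cells to 0.662 without intestine; leaving out each array gave -3.42 to 0.078 and -11.23 to 0.662. The cause was not tested. No paired analysis was possible because each group had 1 array. Signal over background limits genes near the lowest measured signals, and differences describe 4 arrays, not conditions.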
